A study of Mus musculus with 2 samples.

Results

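The genes described here are those of transforming growth factor beta (TGF-beta) signalling: the ligand gene Tgfb1, the gene Lrrc32 of its surface anchor, the receptor genes Tgfbr1, Tgfbr2 and Tgfbr3, the SMAD genes Smad2, Smad3, Smad4 and Smad7, and the corepressor gene Ski. Members were all probe sets that the platform annotation assigns to exactly 1 of these 10 symbols. This gave 22 probe sets of 9 genes, out of 34945 single-gene probe sets of 18193 genes. Lrrc32 was paired with no probe set in the annotation used and has no value here.

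The cells were CD4+ T cells of DEREG mice, a strain whose transgene makes green fluorescent protein (GFP) from the Foxp3 promoter. GFP therefore reports on Foxp3, the master regulator of regulatory T cells, through a transgene and not through the Foxp3 gene itself. After negative selection of CD4+ T cells, GFP-positive cells (labelled CD4+GFP+FoxP3+) and GFP-negative cells (labelled CD4+GFPnegFoxP3neg) were sorted at a stated purity above 99%, and each population was profiled on 1 Affymetrix Mouse Genome 430 array. Both groups come from the same strain and no treatment is stated. The sources used here do not state the organ, how old and how many the mice were, or whether they were pooled. With 1 array per group, each comparison is between these 2 arrays, and no p-value or standard error can be given.

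TGF-beta is secreted in a latent form and is held on the surface of regulatory T cells by the protein GARP, which Lrrc32 encodes. Once released, it binds the type II receptor TGFBR2, which recruits and phosphorylates the type I receptor TGFBR1. TGFBR1 phosphorylates SMAD2 and SMAD3, which join SMAD4 and enter the nucleus, while SMAD7 and SKI restrain the pathway. In CD4+ T cells the pathway induces Foxp3 in the periphery and keeps conventional T cells quiescent.

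The promoters of the ligand and of the paired type I and type II receptors are shown because these 3 genes carry the largest difference of a ligand or receptor in favour of GFP-positive cells (Tgfbr1 and Tgfb1) and the largest in favour of GFP-negative cells (Tgfbr2). Each sequence holds the 250 bases before the annotated start, 5′ to 3′ on the strand of the gene, from RefSeq on build GRCm38.p6, which had entries for 5 of the 10 genes. Capitals mark matches, searched on both strands, to GGGCGG, the GC box bound by SP1. They also mark CAGAC, a box bound by SMAD proteins, on either strand. No match overlaps another.
Tgfb1, chr7:25686752-25687001, plus strand: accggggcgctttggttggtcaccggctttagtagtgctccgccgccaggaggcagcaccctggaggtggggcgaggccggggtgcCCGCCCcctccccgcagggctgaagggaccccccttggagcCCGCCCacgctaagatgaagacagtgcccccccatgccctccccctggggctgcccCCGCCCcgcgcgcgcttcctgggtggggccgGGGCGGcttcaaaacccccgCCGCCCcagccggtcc
Tgfbr1, chr4:47352972-47353221, plus strand: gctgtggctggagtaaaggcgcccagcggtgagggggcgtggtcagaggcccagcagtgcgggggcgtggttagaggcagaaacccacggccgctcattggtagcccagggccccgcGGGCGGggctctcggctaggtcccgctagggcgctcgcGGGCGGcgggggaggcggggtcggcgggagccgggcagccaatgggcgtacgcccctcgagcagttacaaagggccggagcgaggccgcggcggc
Tgfbr2, chr9:116175364-116175613, minus strand: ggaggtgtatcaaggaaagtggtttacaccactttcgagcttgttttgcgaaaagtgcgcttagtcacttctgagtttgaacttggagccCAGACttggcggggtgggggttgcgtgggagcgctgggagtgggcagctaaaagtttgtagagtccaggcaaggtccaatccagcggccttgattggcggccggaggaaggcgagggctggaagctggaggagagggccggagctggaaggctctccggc

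The Tgfb1 stretch held 5 GC boxes and the Tgfbr1 stretch 2, whereas the Tgfbr2 stretch held none and had 1 SMAD box, which begins 160 bases before the start. Of all 32851 promoter stretches of this length, 32.7% held a GC box and 42.2% a SMAD box. GTAAACA, a forkhead motif, was in none of the 3 and in 3.17% of all stretches. Matching letters describe these stretches and show no binding. The share of G and C was 75.2% for Tgfb1, 74.8% for Tgfbr1 and 58.4% for Tgfbr2, against a median of 52.4% over all stretches. A relation between box counts or base content and the direction of the array difference was not tested. Smad3 and Ski also had an entry. Smad3, lower in GFP-positive cells with its brightest probe set, held 2 GC boxes at 69.2% G and C. Ski, slightly higher, held 5 at 87.6%.

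Signals are the deposited intensities, on a linear scale in arbitrary units. A floor of 58.7, the 90th percentile of the signals of genes restricted to other tissues, was taken as the lower limit of usable signals. Signal pairs are given with the GFP-positive array first. A positive difference, on the log2 scale, is a higher signal in GFP-positive cells, and signals under the floor were first set to the floor. Where 1 signal lies under the floor the fold is a lower bound, and where both do no fold is given. Of the 22 member probe sets, 12 were above the floor on both arrays, 4 on the GFP-positive array only, 0 on the GFP-negative array only and 6 on neither. Of all 34945 single-gene probe sets, 13513 were above it on both arrays and 16771 (48.0%) on neither. Another 2820 were above it on the GFP-positive array only and 1841 on the GFP-negative array only.

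None of the 16 members above the floor on at least 1 array reached 2-fold in either direction, although the 4 read on 1 array have only a lower bound and their true fold may be larger. For comparison, of the 18174 single-gene probe sets with at least 1 signal over the floor, 2.31% reached 2-fold in favour of GFP-positive cells and 1.88% in favour of GFP-negative cells. Among the 12 members above the floor on both arrays, 7 were higher and 5 lower in GFP-positive cells. Their median difference was 0.10 log2, with a range from −0.36 to 0.78, against a median of −0.02 over all 13513 probe sets above the floor on both arrays, of which 47.9% were higher. At 1.5-fold, 2 of the 12 were higher, Tgfb1 and Tgfbr1, and 0 lower, where 8.55% and 8.13% of all such probe sets were. These counts are too small to set the members apart from other genes.

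As a scale for these differences, probe sets of the same gene scattered by 0.40 log2 (SD over 8402 probe sets of 3289 genes), which holds no variation between animals or sorts. Of the 12 members, 9 lay within 1 such SD of 0 and all 12 within 2. The 3 beyond 1 SD were the brighter probe sets of Tgfb1 and Tgfbr1 and 1 of the 3 probe sets of Smad4, all higher in GFP-positive cells. The shares of all 13513 probe sets within these limits were not computed, so the counts do not set the members apart. Within 1.5-fold lay 10 of the 12 members and 83.3% of all 13513 probe sets.

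**Figure D1:**
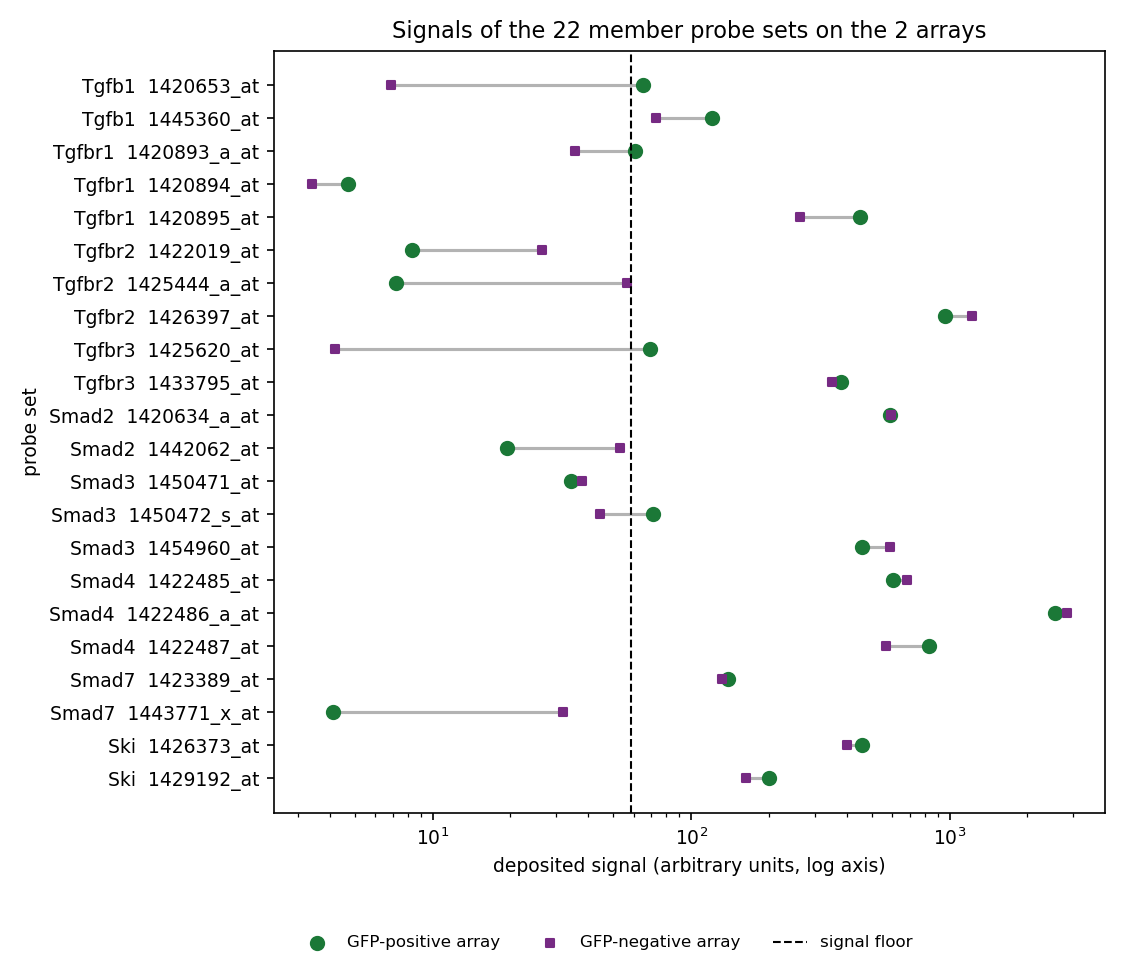
Deposited signal of each of the 22 member probe sets (vertical axis) on the GFP-positive array (green circles) and the GFP-negative array (purple squares), in arbitrary units on a log axis; grey lines join the 2 arrays and the dashed line is the floor of 58.7. The brightest probe sets of Smad4 (1422486_a_at) and Tgfbr2 (1426397_at) have similar signals on both arrays. The widest gaps belong to probe sets with a signal under the floor.

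The arrays and labels were checked once. Foxp3 had signals of 504.4 and 173.2, 2.91-fold higher in the direction of the labels, and Il2ra, which encodes the IL-2 receptor chain CD25, had 617.7 and 361.7. All 14 regulatory T cell markers with a probe set and all 7 T cell markers were above the floor on both arrays. The regulatory T cell markers summed to 17812.4 and 9002.5. The GFP-negative array, labelled FoxP3neg, therefore also carried signal for these markers, Foxp3 included, and the source of that signal was not tested. B cell markers summed to 2388.6 and 4672.6, with 4 and 3 of 10 above the floor. Most of both sums came from the immunoglobulin gene Ighm (1880.7 and 4139.0), without which they were 507.9 and 533.6, and Cd79b, a B cell receptor chain, went the other way at 221.9 and 70.8. The other lists summed as follows: myeloid (505.4 and 638.2, 5 and 3 of 14 above the floor), CD8 T and NK (2164.3 and 2394.6, 4 and 4 of 9), erythroid (180.0 and 128.7, 2 and 0 of 5) and stromal markers (260.7 and 305.2, 0 and 2 of 11). Most of both CD8 T and NK sums came from Gzma (1152.9 and 850.5) and Nkg7 (723.7 and 1221.7), which differed in opposite directions. The signal ratio of 3′ to 5′ control probe sets was higher on the GFP-positive array, 5.30 against 3.57 for Actb and 9.27 against 6.24 for Gapdh. Background was also higher there: tissue-restricted probe sets had a median signal of 18.55 against 8.5, and 13.3% against 7.14% of them were above the floor. In bulk RNA, fewer cells that express a gene and less RNA per cell cannot be told apart.

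The ligand gene Tgfb1 had the higher signal in GFP-positive cells with both of its probe sets, at low levels. Probe set 1445360_at gave 120.5 and 72.8, that is 1.66-fold higher (0.73 log2). Both signals lay close to the floor, at 2.05 and 1.24 times its value, and with the floor doubled the difference became a bound of 0.038. Probe set 1420653_at gave 65.0 and 6.9, which makes it at least 1.11-fold higher. Platelets are rich in TGF-beta1. Of 9 platelet markers with a probe set, 2 passed the floor in GFP-positive cells and 4 in the other population. Their summed signals were 346.3 and 395.6. Their part in the Tgfb1 difference was not tested.

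The type I receptor gene Tgfbr1 showed the largest difference among members above the floor on both arrays. Probe set 1420895_at gave 450.1 and 262.6, that is 1.71-fold higher (0.78 log2), which ranged from 0.78 to 0.82 over the other scalings and the doubled floor. Probe set 1420893_a_at gave 60.7 and 35.5, at least 1.03-fold higher, and probe set 1420894_at was below the floor on both arrays at 4.7 and 3.4. Of the 3 probe sets, 1 is therefore bright enough on both arrays for a fold.

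The type II receptor gene Tgfbr2, the ligand-binding partner of Tgfbr1, went the other way by a smaller amount. Probe set 1426397_at gave 961.5 and 1225.1, 1.27-fold lower or −0.35 log2. Its signals were 16.4 and 20.9 times the floor. The other probe sets of Tgfbr2 were below the floor on both arrays, 1422019_at at 8.3 and 26.5 and 1425444_a_at at 7.2 and 56.7. Tgfbr3, which encodes betaglycan, a co-receptor that presents ligand to TGFBR2, had nearly equal signals with probe set 1433795_at, 379.4 and 349.9 (1.08-fold higher). Its probe set 1425620_at gave 69.5 and 4.2, at least 1.18-fold higher.

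Smad2 and Smad3, the receptor-activated SMADs of this pathway, had nearly equal signals (Smad2) or the lower signal in GFP-positive cells (Smad3) with their brightest probe sets. Smad2 probe set 1420634_a_at gave 587.8 and 595.0, a difference of −0.02 log2 that turned to 0.02 after quantile normalization, 0.038 after loess and 0.0014 after median centring. Its probe set 1442062_at was below the floor at 19.4 and 53.0. Smad3 probe set 1454960_at gave 457.2 and 588.3, 1.29-fold lower or −0.36 log2. Of the other Smad3 probe sets, 1450472_s_at went the opposite way at 71.4 and 44.4, at least 1.22-fold higher, and 1450471_at was below the floor at 34.4 and 37.7.

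Smad4, the common partner of the activated SMADs, was read by 3 probe sets well above the floor, and they disagreed. Probe set 1422486_a_at gave 2556.5 and 2843.0 (−0.15 log2), and probe set 1422485_at gave 602.2 and 681.6 (−0.18). Probe set 1422487_at gave 835.1 and 566.5, 1.47-fold higher (0.56). None of the 3 changed sign under the other scalings. The part of the higher 3′ to 5′ ratio on the GFP-positive array in such disagreements was not tested.

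The inhibitors of the pathway differed little. Smad7, which blocks the type I receptor and recruits ubiquitin ligases to it, had 138.3 and 131.2 with probe set 1423389_at (1.05-fold higher), and probe set 1443771_x_at was below the floor at 4.1 and 31.9. Ski, which represses transcription through SMAD complexes, was slightly higher in GFP-positive cells with both probe sets. Probe set 1426373_at gave 459.3 and 400.5 (1.15-fold, 0.20 log2) and probe set 1429192_at gave 200.0 and 162.5 (1.23-fold, 0.30 log2). The Ski pair was above the floor on both arrays and differed in the same direction under the scalings run.

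**Figure D2:**
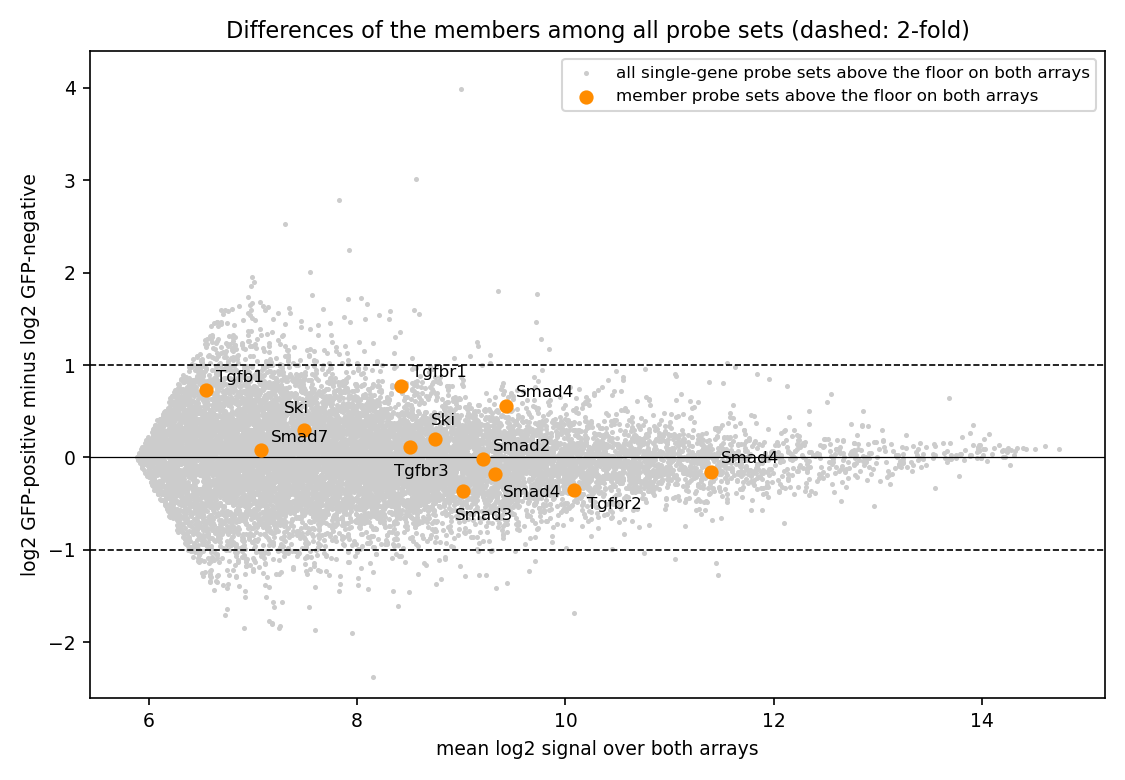
Log2 difference between the arrays (vertical axis, GFP-positive minus GFP-negative) against mean log2 signal (horizontal axis) for the 12 member probe sets above the floor on both arrays (orange, named by gene) and all 13513 such probe sets (grey). The members lie between −0.36 and 0.78, inside the dashed 2-fold lines, with Tgfbr1 highest and Smad3 lowest.

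The 4 probe sets read on the GFP-positive array only, 1 each of Tgfb1, Tgfbr1, Tgfbr3 and Smad3, had signals between 60.7 and 71.4, close above the floor. Of all 34945 single-gene probe sets, 2820 were above the floor on the GFP-positive array only and 1841 on the GFP-negative array only. The part of the higher background on the GFP-positive array in these 4 was not tested.

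The wider pathway was described with 7 lists by role, each gene read by its brightest probe set. Of their 116 genes, 113 had a probe set, 92 were above the floor on at least 1 array and 73 on both. Of the 92, 3 (3.26%) reached 2-fold in favour of GFP-positive cells and 0 in favour of GFP-negative cells, where 1.91% and 1.82% of all 10672 genes above the floor did. The 73 split into 38 higher and 35 lower, and their median was 0.01 log2, against −0.04 over all 8394 genes above the floor on both arrays. The 3 genes were the receptor gene Bmpr2, the corepressor gene Tgif1 and the homing receptor gene Gpr15. These counts depended on the processing. After quantile normalization 1 gene (Tgif1) was past 2-fold on the higher side and 1 (Cdkn2b) on the lower, after loess 2 (Gpr15 and Tgif1) and 0, and with the floor doubled 1 (Bmpr2) and 0.

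Genes of ligand production and activation were mostly near or below the floor. Of 19, 11 were above the floor, 3 of them on both arrays (2 higher, 1 lower, median 0.10 log2) and 8 on the GFP-positive array only. These 8 signals lay between 58.9 and 80.0, near the floor of 58.7 and on the array with the higher background. Over all 18193 genes, 10672 were above the floor on at least 1 array and 8394 on both. Of the 10672, 1410 passed it only on the GFP-positive array and 868 only on the other. The part of the background in the 8 was not tested. Nrros, which anchors latent TGF-beta on myeloid cells, had 794.0 and 1007.9, 1.27-fold lower. Itgav, the integrin alpha V chain that takes part in releasing the ligand, had 202.3 and 165.3, 1.22-fold higher. Its partner Itgb6 gave 65.1 and 2.1, at least 1.11-fold higher, and Ltbp3, a latent TGF-beta binding protein, 80.0 and 41.2, at least 1.36-fold higher. Furin, which cleaves the precursor, had 120.2 and 111.9, and Itgb8 was below the floor at 12.4 and 3.3 (both named after their values were seen).

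Other receptors of the superfamily were above the floor on both arrays for 5 of 11 genes, all higher in GFP-positive cells, with a median of 0.09 log2, a direction shared by 45.7% of all 8394 genes that passed the floor on each array. For 3 of the 5 the difference was under 0.1 log2, among them Bmpr1a (115.5 and 112.5) and Acvr2a (142.0 and 134.9), both named after their values were seen. A further probe set of Acvr2a was lower by −0.36 log2. Bmpr2, the type II receptor for bone morphogenetic proteins, had 289.0 and 144.2, at the 2-fold line. The difference was 1.98-fold after loess and 2.03-fold after median centring, and the other 2 probe sets of Bmpr2 were below the floor (at most 57.3). Acvr1b, the activin type I receptor, had 276.0 and 259.4, Bmpr1b 93.2 and 71.7, and Amhr2, the receptor for anti-Müllerian hormone, 54.5 and 75.7, at least 1.29-fold lower.

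Adaptors that work next to the receptors were higher in 4 of 10 cases and lower in 6 (median −0.08 log2). Tgfbrap1, which associates with the receptors, had 374.4 and 259.9, 1.44-fold higher. Zfyve9, which encodes SARA, the anchor that presents SMAD2 and SMAD3 to the receptor, had 89.7 and 51.2, at least 1.53-fold higher. Axin1, a scaffold, was 1.26-fold lower (352.5 and 442.7). Pdpk1, a kinase, was 1.25-fold higher (627.8 and 503.9), but another probe set gave 537.6 and 567.7.

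Other SMADs and nuclear partners were higher in 7 of 14 cases and lower in 7 (median −0.02 log2). Tgif1, a homeobox corepressor of SMAD complexes, had 139.3 and 58.5 and was at least 2.37-fold higher, its GFP-negative signal lying just under the floor. With the floor doubled it was at least 1.19-fold higher. The related Tgif2 had 169.8 and 88.9, 1.91-fold higher, so both TGIF genes had the higher signal in GFP-positive cells. Smad1, a SMAD of the bone morphogenetic protein branch, had 186.3 and 125.5, 1.48-fold higher, but a further probe set was lower (41.4 and 91.8). Runx1, a DNA-binding partner of SMADs, was 1.80-fold lower (212.3 and 381.8) with a second probe set lower as well (74.9 and 126.9) and others higher (229.5 and 204.4, 150.4 and 117.5, and 100.8 and 7.4, the last at least 1.72-fold). Skil, which encodes the Ski relative SnoN, had 1768.7 and 1511.1, 1.17-fold higher, like Ski itself, although a second probe set was lower (29.1 and 61.5, at least 1.05-fold; named after its values were seen).

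**Figure D3:**
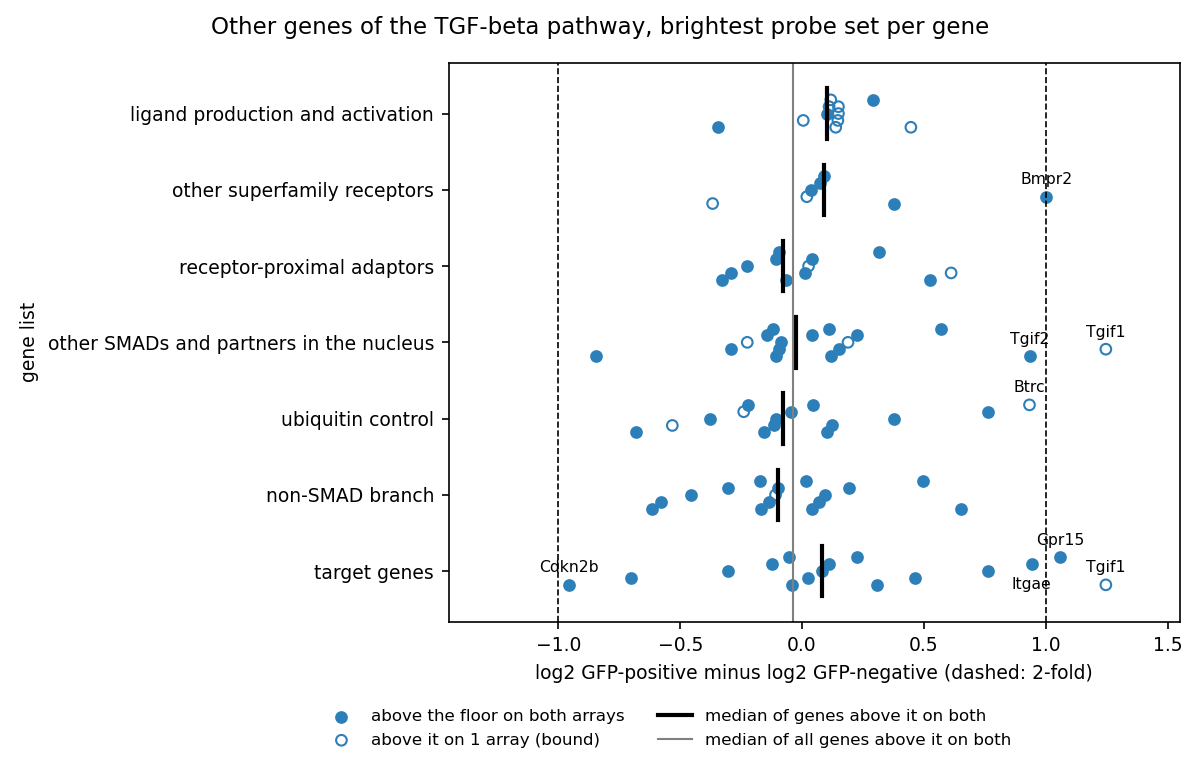
Log2 difference (horizontal axis, GFP-positive minus GFP-negative) of the genes of the 7 pathway lists (vertical axis), with genes above the floor on both arrays filled and those above it on 1 array open, which are bounds. Black bars are list medians over the filled points, the grey line is the median of all genes (−0.04) and dashed lines mark 2-fold; Bmpr2, Tgif1 and Gpr15 lie at or beyond the upper line and no gene beyond the lower one.

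Genes of ubiquitin control, which set the lifetime of receptors and SMADs, were higher in 5 of 12 cases and lower in 7, with a median of −0.08 log2. Wwp1, a ubiquitin ligase that acts with SMAD7, had 166.9 and 98.4, 1.70-fold higher, and its further probe set was higher too (105.0 and 85.1). Btrc, the substrate receptor of an SCF ligase, was at least 1.91-fold higher (112.1 and 45.3). Its further probe sets were below the floor on both arrays (at most 57.6). Usp9x, a deubiquitinase of SMAD4, was 1.61-fold lower (146.9 and 235.8) with further probe sets lower (95.0 and 111.8, and 83.8 and 114.0) and others higher (177.8 and 150.1, and 93.8 and 14.7, the last at least 1.60-fold). Nedd4l, a ligase for activated SMAD2 and SMAD3, was at least 1.45-fold lower (51.9 and 84.9), with a further probe set at 31.0 and 74.9. Smurf2, a ligase recruited by SMAD7 and named after its values were seen, was higher with its 3 probe sets, at 956.0 and 736.3, 319.2 and 305.7, and 164.5 and 71.2 (2.31-fold).

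The branch that does not use SMADs, which runs through TAK1 and MAP kinases, was higher in 7 of 15 cases and lower in 8, with a median of −0.10 log2. That median became 0.040 with the mean over a gene's probe sets. Map2k4, a kinase upstream of JNK, had 338.7 and 215.7, 1.57-fold higher, and Traf6, the ligase that activates TAK1, had 172.5 and 122.4, 1.41-fold higher (another probe set, 108.7 and 81.0). The adaptor gene Grb2 was 1.53-fold lower (290.6 and 445.7; further probe set 175.1 and 248.9). Map3k7, which encodes TAK1, was lower by −0.58 log2 (170.8 and 255.4), with further probe sets lower (112.8 and 157.3) and higher (187.4 and 147.8).

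Genes known as TGF-beta targets were higher in 9 of 15 cases and lower in 6, with a median of 0.08 log2. Gpr15, a gut homing receptor induced by TGF-beta, had 130.7 and 62.7, 2.08-fold higher. It was 1.95-fold higher after quantile normalization, and at least 1.11-fold with the floor doubled. Itgae, which encodes the CD103 integrin chain and is also a regulatory T cell marker, was higher with both probe sets, 1.92-fold at 1218.4 and 633.8 and 1.70-fold at 1091.6 and 641.3. Cdkn2b, a cell cycle inhibitor induced by TGF-beta, went the other way at 62.6 and 121.4, 1.94-fold lower, with its GFP-positive signal just above the floor. It was 2.08-fold lower after quantile normalization, and at least 1.03-fold with the floor doubled. Tgif1, described above, is on this list too. Targets therefore differed in both directions between the arrays, and the list holds genes that other signals also regulate. The list records no direction of regulation for its genes, so these counts and the median do not measure the output of the pathway.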

How the data were processed

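The authors deposited linear MAS5 intensities, as the submitters' processing notes say. The software version and detection calls are not stated in the sources used here. The deposited intensities had a 2% trimmed mean of 150.0 on both arrays, and no further scaling was applied. Cells were extracted with Trizol and 6 µg of RNA were labelled, per the labels' protocols.

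Symbols came from the platform annotation of 2016, updated through gene identifiers, which altered 0 symbols. Of the 45101 probe sets, 932 with several symbols and 9211 with none entered no comparison, nor did 64 controls. The floor of 58.7 came from 98 probe sets of 63 tissue-restricted genes out of 71 listed. Members and lists were chosen with earlier results of these data known. Named genes were all members, every list gene past 2-fold, up to 4 per list by absolute difference, and Foxp3, Il2ra and Itgae as a check. Others are said to be named after their values were seen. No test was run, since there was 1 array per group, and the number of arrays limits the precision. Alternatives were no floor, a doubled floor, quantile normalization, loess (span 0.3), median centring, a 1.5-fold threshold, leaving out probe sets shared between transcripts, the brightest probe set per gene and the mean of probe sets. The steps were tested on simulated data with changes past 2-fold in probe sets well above the floor. Smaller changes and dimmer probe sets were not covered. The simulated noise was smaller than the scatter of 0.40 log2 between probe sets of the same gene. Python 3.11.15, numpy 2.4.6, pandas 2.3.3 and statsmodels 0.14.6 were used.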

Additional observations from a re-analysis of the deposited data

How the results depend on the processing

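With 2 arrays and no replicates, stability could be examined only against processing. The count of member probe sets past 2-fold stayed at 0 higher and 0 lower with the floor doubled, after quantile normalization, loess or median centring, without probe sets shared between transcripts, and with the brightest probe set per gene. At a 1.5-fold threshold it was 2 higher and 0 lower. Without a floor it was 2 higher and 4 lower, the 2 being the probe sets 1420653_at of Tgfb1 and 1425620_at of Tgfbr3 (3.24 and 4.05 log2), each with 1 signal under 10, where signals have no order. The 4 lower ones were 2 probe sets of Tgfbr2 and 1 each of Smad2 and Smad7, all below the floor on both arrays. The pathway genes past 2-fold, 3 higher and 0 lower, were 18 higher and 6 lower without a floor, 1 and 0 with it doubled, 1 and 1 after quantile normalization, 2 and 0 after loess and 3 and 0 after median centring, counts recomputed under these settings after seeing the data. The median of the ligand production and activation list became 0.96 log2 without a floor, over 19 genes of which 3 were above the floor on both arrays. The median of the non-SMAD branch became 0.040 with probe sets averaged; the cause was not tested. Other list medians moved by less than the scatter of probe sets within a gene divided by the square root of the number of genes. Signals near the floor limit what can be said of Tgfb1, Smad7 and the dim probe sets of the receptors.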

Other observations

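Other ligands of the TGF-beta superfamily and their secreted antagonists, a list written after the member values were known, were mostly dim in both populations. Of all 18193 genes, 10672 had at least 1 signal above the floor and 8394 had both. Of the 35 genes of the list on the array, 25 had both signals below the floor, 4 had both above it and 6 had 1. Twsg1, which binds bone morphogenetic proteins, was the brightest of those above it on both arrays, at 347.1 and 293.3 (1.18-fold higher, GFP-positive array first). Grem1, an antagonist of bone morphogenetic proteins, had 147.6 and 39.7, at least 2.51-fold higher, and the ligand gene Gdf11 had 119.4 and 41.3, at least 2.03-fold higher. Sostdc1, another antagonist, had 39.3 and 197.7, at least 3.37-fold lower. These 3 were the genes of the list past 2-fold, where 1.91% of all genes above the floor were at least 2-fold higher and 1.82% lower. Each of the 3 had 1 signal under the floor. Grem1 and Gdf11 passed it only on the GFP-positive array, which had the higher background, and the part of that background was not tested.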
